A study of Mus musculus with 6 samples.

Results

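SoxC and SoxD are groups of Sox transcription factors, proteins that bend DNA through a high-mobility-group (HMG) box. The 6 genes followed here are the mouse SoxC genes Sox4, Sox11 and Sox12 and the SoxD genes Sox5, Sox6 and Sox13, chosen by symbol from the 51733 gene symbols of the count tables. RNA was sequenced from Sox2-positive neural progenitor cells (NPCs), sorted from the neural tubes of C57BL/6 mouse embryos at E13.5. The 3 control libraries, from wildtype embryos, are called A, B and C. The letters D, E and F stand for the 3 Ybx1-KO libraries, from embryos homozygous for the null allele Ybx1tm1Ley. Ybx1 encodes a Y-box protein that binds DNA and RNA. Cells of both groups carried the Sox2-eGFP reporter used for sorting, and the null allele is constitutive, not limited to neural cells. In the sample titles A and B have a first number in common, and so have D and E. What the number stands for is not given, and no source says which libraries came from separate litters, so p-values measure the spread between these libraries only.

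SoxC proteins carry a strong activation domain and are known as drivers of the neuronal program: Sox4 and Sox11 act largely redundantly on pan-neuronal genes such as Tubb3 and Dcx as progenitors leave the cell cycle, and Sox12 is the weaker activator of the group. SoxD proteins lack a known activation or repression domain. They pair with each other through a coiled coil and modify the action of other factors, among them the SoxE proteins. In the embryonic forebrain Sox5 is known for its role in deep-layer projection neurons and Sox6 for roles in pallial progenitors and in interneurons of the ventral telencephalon. Outside it, Sox5 and Sox6 act with Sox9 in cartilage, and Sox13 is known as a binding partner of Tcf factors.

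The HMG box is what the 6 genes share, and it also sets how far their reads can be told apart. A stretch of 60 coding bases at the start of the box is shown for each gene, with the 32 bases that are the same in all 6 in capitals, read 5′ to 3′ from the GENCODE M21 transcripts (GRCm38).
Sox4: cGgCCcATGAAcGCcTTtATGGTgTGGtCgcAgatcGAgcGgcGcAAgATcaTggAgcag
Sox11: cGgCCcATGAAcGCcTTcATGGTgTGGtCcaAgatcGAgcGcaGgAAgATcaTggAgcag
Sox12: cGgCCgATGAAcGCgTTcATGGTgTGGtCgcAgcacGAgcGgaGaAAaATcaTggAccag
Sox5: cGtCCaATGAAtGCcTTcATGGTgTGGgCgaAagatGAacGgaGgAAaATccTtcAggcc
Sox6: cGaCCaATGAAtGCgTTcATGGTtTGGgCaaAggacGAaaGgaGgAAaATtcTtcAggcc
Sox13: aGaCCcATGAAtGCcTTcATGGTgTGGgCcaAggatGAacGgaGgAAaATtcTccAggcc
Over 210 bases of the box, identity ran from 84.8% to 91.0% within SoxC and from 81.9% to 85.2% within SoxD, against 57.1% to 65.2% between the groups. The longest run that any pair shared was 48 bases, between Sox4 and Sox11. No stretch of 100 bases, the length of a sequenced read, was shared between members.

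The genes differ in structure. The exons of each SoxC gene form 1 unbroken block, although 1 of the 2 annotated transcripts of Sox12 is spliced within it: Sox4 at chr13:28948919-28953713, Sox11 at chr12:27334264-27342574 and Sox12 at chr2:152393611-152398063. The SoxD genes are spliced: Sox5 at chr6:143828425-144781977 and Sox6 at chr7:115470872-116038796, both with 25 separate exon blocks, and Sox13 at chr1:133382303-133424377, with 14. All 6 lie on the minus strand of GRCm38. Of the records on the other strand that overlap members, Gm26735 and Sox5os1 are the ones that share exon bases with them. Gm26735 shares 2616 exon bases with Sox4, and 53.6% of the 100-base stretches of Sox4 occur in it on the other strand, while Sox5os1 shares 1330 exon bases with Sox5.

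Y-box proteins are named for the inverted CCAAT box, so the windows from 250 to 21 bases before the RefSeq starts (GRCm38.p6) were searched for CCAAT on both strands, that is for CCAAT or ATTGG. The windows of the SoxC genes, each with 1 start, all hold a match and are shown with the matches in capitals.
Sox4, chr13:28953720-28953949, minus strand: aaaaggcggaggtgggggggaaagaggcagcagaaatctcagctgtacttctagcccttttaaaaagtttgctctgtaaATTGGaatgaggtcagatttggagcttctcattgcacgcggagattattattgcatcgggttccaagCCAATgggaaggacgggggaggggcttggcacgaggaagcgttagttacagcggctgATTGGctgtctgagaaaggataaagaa
Sox11, chr12:27342739-27342968, minus strand: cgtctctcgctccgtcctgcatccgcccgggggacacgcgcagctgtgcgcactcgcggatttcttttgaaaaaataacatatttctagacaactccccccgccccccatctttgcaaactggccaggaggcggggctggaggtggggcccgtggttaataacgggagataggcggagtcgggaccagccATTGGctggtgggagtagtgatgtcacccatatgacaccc
Sox12, chr2:152398067-152398296, minus strand: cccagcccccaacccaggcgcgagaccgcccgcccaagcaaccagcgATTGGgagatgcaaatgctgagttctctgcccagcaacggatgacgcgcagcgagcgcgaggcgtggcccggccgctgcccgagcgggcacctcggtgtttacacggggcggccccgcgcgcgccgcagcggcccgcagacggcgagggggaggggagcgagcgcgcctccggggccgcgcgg
Sox4 has 3 matches, and Sox11 and Sox12 have 1 each. The longer form CTGATTGG, searched on both strands, was in the Sox4 window and in none of the other 10 windows of the members. Sox13 had no match, and Sox6 had matches in 2 of its 6 windows. The only Sox5 window, chr6:143947127-143947356, had none either. It lies inside the gene, whose annotated 5′ end on the minus strand is at 144781977. Sox5 starts nearer to that end had no window and were not searched. Of all 32851 windows of this length, 32.2% hold CCAAT on either strand and 3.53% the longer form. A match is a string of letters and was not tested for binding.

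The libraries held 4743279 to 23883542 counts on genes, and each Ybx1-KO library held fewer than each control library. Library F stood apart: 59.5% of its read pairs fell outside genes, and 1729 olfactory, vomeronasal and taste receptor genes, pseudogenes included and thought silent in this tissue, stood at 0.797 FPKM there, against 0.00394 to 0.0168 FPKM in the others. FPKM are counts divided by exon length and by the library's total on genes. Between groups, values are given as CPM, counts relative to the library's size after trimmed-mean-of-M-values (TMM) scaling. Ybx1 stood at 238 to 531 CPM in the control and 9.66 to 126 CPM in the Ybx1-KO libraries, and which exons the allele removes was not looked at here. Of the 11 neural progenitor markers all were tested, and Sox2 itself was at 17.5 to 48.4 CPM in control and 24.2 to 50.6 CPM in Ybx1-KO NPCs. All 15 neuron markers were also present, with summed levels of 3865 to 6895 CPM and 2309.6 to 5719 CPM.

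Sox11 was the most abundant member and Sox5, Sox6 and Sox13 the least (compared per exon length). In control NPCs Sox11 stood at 240.2 ± 38.4 FPKM (SD, n = 3), Sox4 at 73.1 ± 3.51 FPKM and Sox12 at 20.3 ± 6.24 FPKM. Sox5 followed at 7.71 ± 5.48 FPKM, Sox6 at 4.27 ± 0.871 FPKM and Sox13 at 2.86 ± 1.20 FPKM. The ranges of neighbours in this order did not overlap from Sox11 down to Sox5, and they overlapped among the 3 SoxD genes. In Ybx1-KO NPCs the order of the SoxC genes was the same, at 207 ± 50.6, 56.0 ± 18.1 and 40.0 ± 22.9 FPKM for Sox11, Sox4 and Sox12, but the ranges of Sox4 and Sox12 overlapped. The order of the SoxD means was inverted, with Sox13 at 7.38 ± 2.46, Sox6 at 2.41 ± 0.873 and Sox5 at 1.97 ± 0.877 FPKM (SD, n = 3). There Sox13 lay above Sox6 in its whole range, and the ranges of Sox6 and Sox5 overlapped. Control B had this inverted order too, with Sox13 at 4.14, Sox6 at 3.52 and Sox5 at 2.20 FPKM. Sox5 and Sox6 have 14 and 16 annotated transcripts, and their length was taken as the union of all exons, so their FPKM are lower than values for a single transcript would be.

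Summed per exon length, the SoxC genes stood at 13.0 to 38.7 times the level of Sox2. Sox11 was the 16th gene of all by counts over the 6 libraries and took 0.136% (95% Wilson interval 0.133% to 0.139%) of the counts on genes in F, the lowest share, and 0.232% (0.230% to 0.234%) in B, the highest. At the other end, the lowest count of any member was 145, of Sox5 in D (95% exact Poisson interval 122 to 171). Such intervals cover counting error only.

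**Figure D1:**
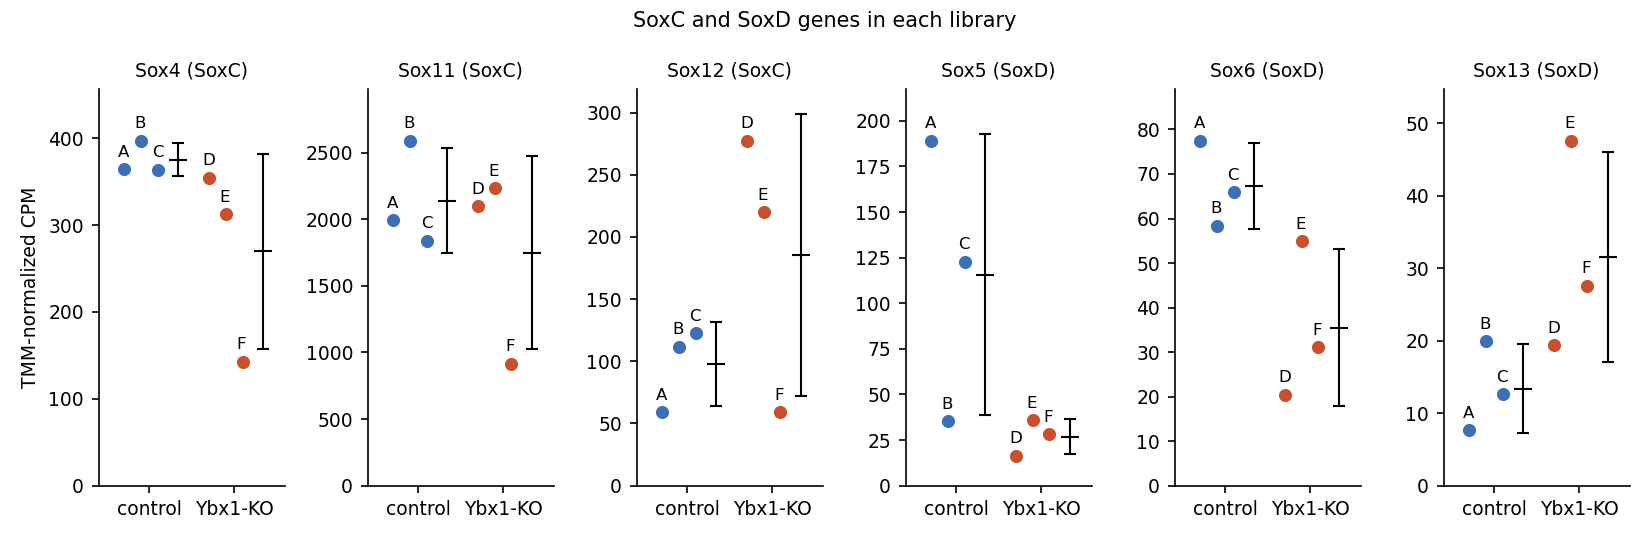
TMM-normalized CPM (linear axes from 0, a separate scale for each gene) of the 6 genes in control A, B and C (blue) and in D, E and F from Ybx1-KO embryos (orange), with the mean ± SD (n = 3) beside the points. The groups do not overlap for Sox4 and Sox6, Sox5 is high in A and C and low in B, and F is the lowest library for Sox4 and Sox11.

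The mean of Sox5 was 4.32 times as high in control as in Ybx1-KO NPCs and that of Sox6 1.90 times, while the mean of Sox13 was 2.35 times and that of Sox12 1.90 times as high in Ybx1-KO as in control NPCs. Sox4 and Sox11 were nearer to equal, with means 1.39 and 1.22 times as high in control. None of these differences passed the test, and libraries of the same group also differed widely. The comparison asks how loss of Ybx1 affects gene expression in the embryonic neural tube. It was tested by the quasi-likelihood test of edgeR, adjusted after Benjamini and Hochberg over the 21325 genes whose mean FPKM in either group was above 1. A call needed a fold change above 1.5 together with an adjusted p below 0.05. All 6 members passed the filter and were tested. None of the 6 was called, and neither was any other gene: 0% of the tested genes were called higher and 0% lower. With limma-voom 0 genes were called as well, and with DESeq2 214, among them Sox5. At an unadjusted p below 0.05, Sox13 was higher and Sox5 and Sox6 were lower in Ybx1-KO NPCs, which makes 1 of 6 members higher, against 6.96% of all tested genes, and 2 of 6 lower, against 4.26%. Across the tested genes the log2 fold change fell with exon length (Spearman rho of -0.43 over genes, which are not independent replicates), and Sox5 and Sox6, with 14376 and 14832 exon bases, are the longest members. With offsets adjusted for exon length the log2 fold change was -1.88 for Sox5, 1.28 for Sox13 and -0.67 for Sox6, whose unadjusted p was then 0.0884 (edgeR). For Sox4 and Sox6, 2 of 6 members, all Ybx1-KO libraries were below all control libraries, against 8.15% of all tested genes. For no member were all of them above, against 4.99%. These counts are for TMM-scaled CPM. Scaled by total counts, the groups overlapped for Sox4, and for Sox13 all Ybx1-KO libraries were above. The share of all tested genes was not taken on that scale. The median log2 fold change of all tested genes was 0.31, and it ran from 0.31 to 0.53 with 4 scalings, so each member is also given relative to it.

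Sox4 was at 364, 397 and 364 CPM in A, B and C. In D, E and F it was at 355, 312 and 143 CPM. The means were 375 ± 19.1 and 270.0 ± 112 CPM (SD, n = 3). The groups did not overlap on this scale, but D was next to the lowest control library, and F was far below the rest. Scaled by total counts instead, the groups overlapped. In FPKM, D (76.9) was then the highest of all libraries, and F (44.1) was close to E (47.1). The TMM factor was 1.57 for F and 0.727 for E. Its log2 fold change (Ybx1-KO minus control) was -0.47 with a standard error (SE) of 0.46 (adjusted p = 0.633, edgeR), or -0.78 relative to the median of all genes. The exact permutation test, two-sided like all given here, gave p = 0.1, the smallest that 3 against 3 libraries allow. Without F the log2 fold change was -0.15.

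Sox11, the closest relative of Sox4, was at 1991, 2590.2 and 1840.2 CPM in control and at 2097, 2235 and 916 CPM in Ybx1-KO NPCs. The means were 2141 ± 397 and 1749 ± 725 CPM (SD, n = 3). D and E lay between the control libraries and F was the lowest of all. The log2 fold change was -0.29 (SE 0.59, adjusted p = 0.828, edgeR; exact permutation p = 0.6), or -0.60 relative to the median of all genes. Without F it was 0.03, or -0.0029 on the genes tested with all 6 libraries. Over the 6 libraries the log2 levels of Sox4 and Sox11 had a Pearson correlation of 0.94, in which F, low for both, is 1 of the points. The summed neuron markers were also highest in B (6895 CPM) and lowest in F (2309.6 CPM). The summed progenitor markers were lowest in F too (1435 CPM), but highest in D (2453 CPM). The part of either in the levels of Sox4 and Sox11 was not tested.

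Sox12, the least abundant SoxC gene, was at 59.0, 112 and 123 CPM in control and at 277, 219.8 and 59.0 CPM in Ybx1-KO NPCs. The means were 97.8 ± 34.1 and 185 ± 113 CPM (SD, n = 3). D and E lay above all control libraries, and F was level with control A, the lowest. The place of F depended on the scaling: in FPKM, without TMM, it stood at 19.6, between A (13.2) and B (22.4). The log2 fold change was 0.92 (SE 0.52, adjusted p = 0.455, edgeR; exact permutation p = 0.3), or 0.61 relative to the median of all genes. It was 0.48 without D and 1.36 without F. Shares of the summed SoxC FPKM need no scaling between libraries. Sox12 held 4.03%, 5.98% and 8.49% of that sum in A, B and C and 16.0%, 12.9% and 8.64% in D, E and F. The Ybx1-KO libraries lay above the control libraries for this share, F by little. Sox4 held 19.7% to 23.3% in control and 17.0% to 19.4% in Ybx1-KO NPCs, also without overlap, and Sox11 64.9% to 74.3% over all libraries. These shares were looked at with the levels known and are given with no test.

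Sox5, the SoxD gene of deep-layer projection neurons, was at 189, 35.4 and 123 CPM in control and at 16.4, 35.7 and 28.3 CPM in Ybx1-KO NPCs. Controls A and C were high, and control B lay within the range of the Ybx1-KO libraries. The means were 116 ± 77.1 and 26.8 ± 9.73 CPM (SD, n = 3). The log2 fold change was -2.11 (SE 0.53, unadjusted p = 0.00101, adjusted p = 0.263, edgeR), or -2.42 relative to the median of all genes, and the exact permutation test gave p = 0.2. It was the difference of largest size among the 6 members. Without control B it was -2.53 and was called (adjusted p = 0.0146). Without control A it was -1.58, with an adjusted p of 0.783, and without E it was -2.25, with an adjusted p of 0.000237. Without D it was -1.92 (adjusted p = 0.0196), but -1.85 and not called on the genes tested with all 6 libraries. It was also called with DESeq2, with no filter on low counts and with libraries summed by title number. In F the receptor background of 0.797 FPKM compares with 2.92 FPKM for Sox5, and with that background subtracted in each library the log2 fold change was -2.17.

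The libraries high in Sox5 also had the highest summed level of forebrain genes. Of 12 telencephalon markers, a list drawn up after the values of Eomes and Fezf2 had been seen, the summed level was 1241 CPM in A and 1424 CPM in C, against 183 CPM in B and 97.9 to 343 CPM in the Ybx1-KO libraries. The single genes were not uniform. Tbr1, Neurod2, Neurod6 and Dlx1 were higher in A and C than in any other library, Neurod6 at 498 and 351 CPM against 3.53 to 21.3 CPM. Six3 ran the other way and was the higher marker at an unadjusted p below 0.05, with 6.48, 11.7 and 19.4 CPM in control and 56.4, 32.4 and 12.4 CPM in Ybx1-KO NPCs. Emx2 was at 24.3 CPM in A, below its 48.3 CPM in D. The only markers of the list at 0 were Emx1 and Lhx8, both in D. Of the 12, 6 were lower and 1 was higher at an unadjusted p below 0.05, and the median log2 fold change was -2.36. The 12 Hox genes taken as hindbrain and spinal cord markers ran the other way, with 78.3 CPM in A, 172 CPM in C and 561 CPM in B, against 291 to 726 CPM in the Ybx1-KO libraries. Of these 12, 5 were higher and 0 lower at an unadjusted p below 0.05, and the median log2 fold change was 0.87. In these bulk samples, fewer cells of a type and less RNA per cell cannot be told apart. The part of the regional makeup of the libraries in the Sox5 difference was not tested.

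**Figure D2:**
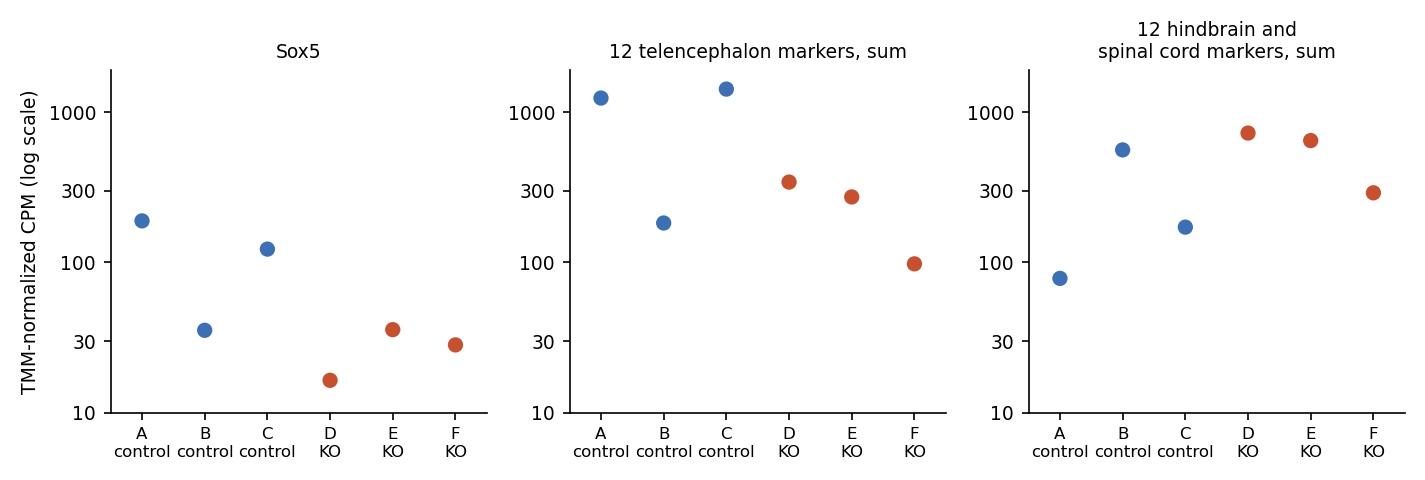
TMM-normalized CPM (log axes, same scale) of Sox5, of the sum of 12 telencephalon markers and of the sum of 12 hindbrain and spinal cord markers in each library, control in blue and Ybx1-KO in orange. Control B lies with the Ybx1-KO libraries in all 3 panels: its Sox5 level of 35.4 CPM is close to the 35.7 CPM of E.

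Sox6, the partner of Sox5, was at 77.5, 58.4 and 65.9 CPM in control and at 20.4, 54.9 and 31.1 CPM in Ybx1-KO NPCs. The groups did not overlap, with E close below control B. The means were 67.3 ± 9.62 and 35.5 ± 17.7 CPM (SD, n = 3), a log2 fold change of -0.92 (SE 0.41, unadjusted p = 0.0391, adjusted p = 0.444, edgeR; exact permutation p = 0.1, the smallest possible), or -1.23 relative to the median of all genes. Control B was the lowest control library here too, but lay above all Ybx1-KO libraries. The value was -0.70 without D and -1.25 without E. The unadjusted p was not below 0.05 with total-count scaling (0.0585, edgeR) or with a filter of CPM above 1 in 3 libraries (0.0563, edgeR). In F, Sox6 stood at 3.11 FPKM, and with the receptor background subtracted in each library the log2 fold change was -0.96. Cartilage and mesenchyme markers, of tissues in which SoxD genes are also used, did not separate the groups in their sums. The 8 cartilage markers summed to 129.5 to 200.4 CPM in control and 124 to 177 CPM in Ybx1-KO NPCs. The 7 mesenchyme markers, none of them at 0, summed to 860.4 CPM in A, 125 CPM in B and 216 CPM in C. In Ybx1-KO NPCs they summed to 65.8 to 131 CPM. All 7 had a log2 fold change below 0, with a median of -2.0, and 5 were lower at an unadjusted p below 0.05 (edgeR). The part of cartilage or mesenchyme in the SoxD levels was not tested.

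Sox13 was at 7.63, 19.9 and 12.6 CPM in control and at 19.4, 47.6 and 27.6 CPM in Ybx1-KO NPCs. The groups overlapped only in that D was just below control B. The means were 13.4 ± 6.19 and 31.5 ± 14.5 CPM (SD, n = 3), and the log2 fold change was 1.23 (SE 0.46, unadjusted p = 0.0162, adjusted p = 0.432, edgeR; exact permutation p = 0.2), or 0.92 relative to the median of all genes. Scaled by total counts, the groups did not overlap. Without D the log2 fold change was 1.43 and was called (adjusted p = 0.0387), but on the genes tested with all 6 libraries it was 1.49 and not called (adjusted p = 0.104). Without A it was 0.94 (unadjusted p = 0.0826, edgeR), and without E it was 0.95, or 0.81 on the genes tested with all 6 libraries (unadjusted p = 0.108, edgeR). In F, Sox13 stood at 9.49 FPKM against a receptor background of 0.797 FPKM.

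Within SoxD, Sox13 took a larger and Sox5 a smaller share in each Ybx1-KO library than in any control library, and these shares too need no scaling between libraries. Sox13 held 8.78%, 42.0% and 18.4% of the summed SoxD FPKM in A, B and C and 64.1%, 64.1% and 61.1% in D, E and F. Sox5 held 65.3%, 22.3% and 53.7% in control and 16.3%, 14.4% and 18.8% in Ybx1-KO NPCs. For Sox6 the shares were 25.9% to 35.7% and 19.6% to 21.5%. The groups did not overlap for any of the 3 shares, which sum to a whole and so are not separate results. Control B, low in Sox5, lay between the other controls and the Ybx1-KO libraries for the share of Sox13. The shares depend on the exon lengths used and were looked at with the levels known, so they are given with no test. Sox13 has 4312 exon bases, against 14376 for Sox5 and 14832 for Sox6. The part in these shares of the fall of log2 fold change with exon length was not tested.

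**Figure D3:**
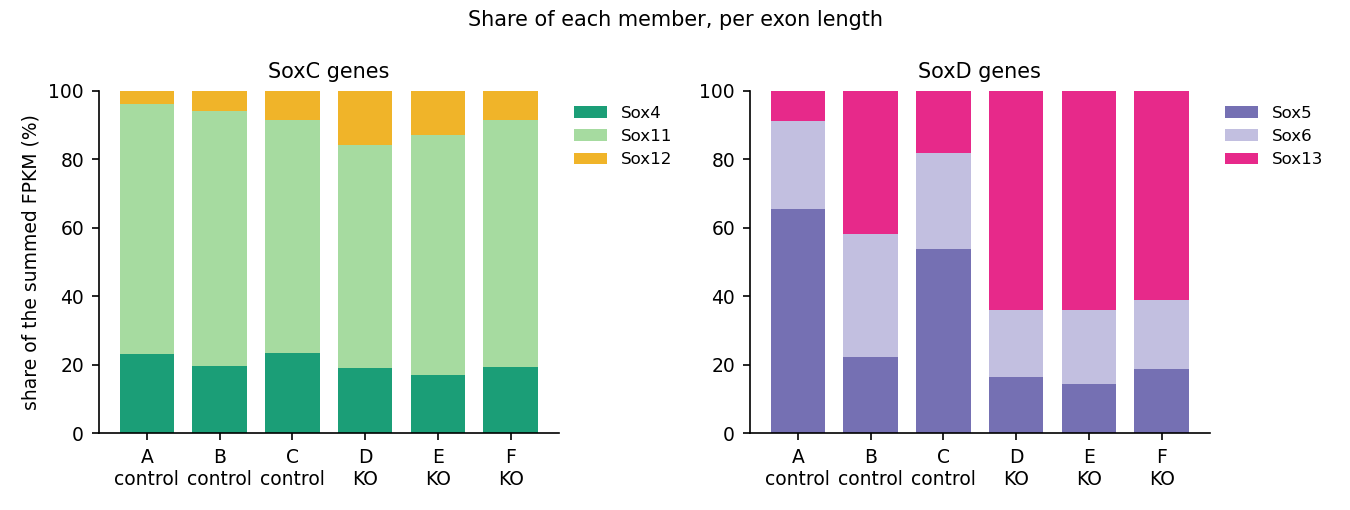
Share (%) of each gene in the summed FPKM of the SoxC genes (left) and of the SoxD genes (right), 1 bar for each library. Sox11 takes 64.9% to 74.3% of SoxC in all libraries, and Sox13 takes 61.1% to 64.1% of SoxD in Ybx1-KO against 8.78% to 42.0% in control libraries.

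SoxC counts exceeded SoxD counts in every library. The ratio of summed SoxC to summed SoxD counts was 8.81, 27.3 and 11.6 in A, B and C and 48.5, 20.0 and 12.8 in D, E and F. The groups overlapped, and the mean log2 ratio was higher by 0.72 in Ybx1-KO NPCs, less than the pooled SD of 0.92 between libraries. Per exon length the difference was 0.17.

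**Figure D4:**
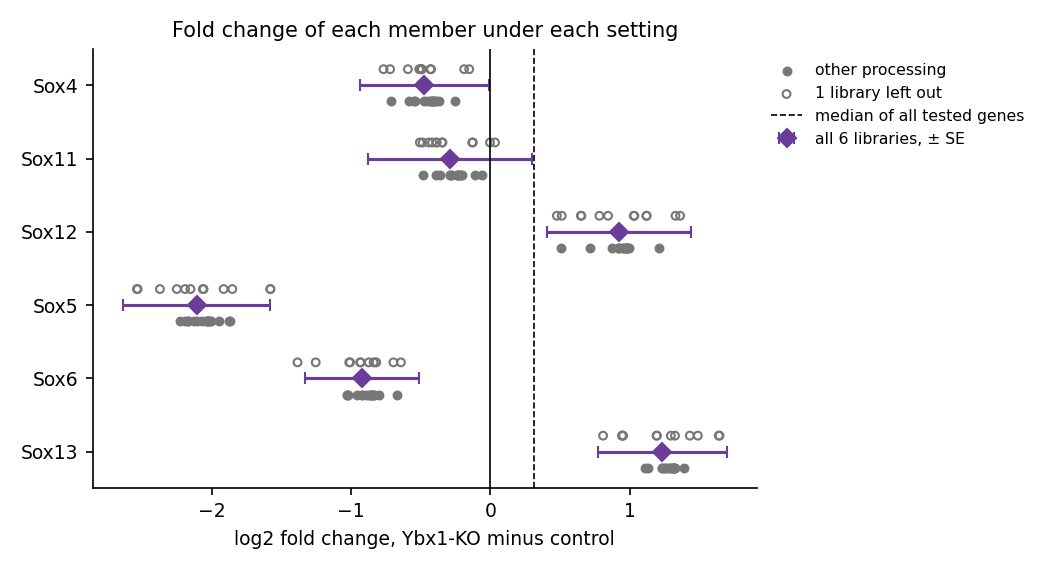
Log2 fold change (Ybx1-KO minus control) of each gene from edgeR with all 6 libraries (diamond, ± standard error), under other processing (filled points) and with 1 library left out (open points); the dashed line is the median of all tested genes, 0.31. Only Sox11 has a point on the other side of 0 from its diamond, at 0.03 without F.

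Genes that SoxC factors are known to act on or with did not follow a single direction. Of the 10 genes of this list, all were tested and 0 were called, 1 was higher and 1 lower at an unadjusted p below 0.05, and the median log2 fold change was -0.12, against 0.31 for all tested genes. Dcx, a microtubule-associated protein of young neurons, was at 1248, 1556 and 832 CPM in control and at 848, 893 and 276 CPM in Ybx1-KO NPCs, a log2 fold change of -0.85 (SE 0.57). Tead2, a factor of the Hippo pathway, was at 45.6 to 53.1 CPM and 67.1 to 112 CPM, without overlap between the groups (a log2 fold change of 0.83, SE 0.37, adjusted p = 0.444, edgeR). Eomes, a marker of intermediate progenitors, was at 53.3, 0.468 and 67.0 CPM in control and at 5.78, 6.44 and 6.39 CPM in Ybx1-KO NPCs, so control B was the lowest library. For Neurog2, a proneural factor, the log2 fold change was -0.82, with a standard error of 0.48.

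Of the 10 genes listed as linked to SoxD factors (as targets, partners or otherwise), 9 were tested, Acan was not, and 0 were called. At an unadjusted p below 0.05 there were 3 lower and 0 higher, and the median log2 fold change was -0.17. The 3 lower genes belong to forebrain neurons. Fezf2, which specifies subcerebral projection neurons, was at 57.2, 3.42 and 99.2 CPM in control and at 6.69, 10.7 and 4.97 CPM in Ybx1-KO NPCs. Lhx6, of interneurons from the ventral telencephalon, was at 24.1, 2.67 and 67.0 CPM and at 0.113, 1.97 and 8.24 CPM. Control B was the lowest library of all for Fezf2 and within the Ybx1-KO range for Lhx6, and for both it was far below A and C, as for Sox5. Bcl11b, a zinc-finger factor of deep-layer neurons, was at 225, 72.6 and 178 CPM in control and at 63.0, 57.0 and 18.8 CPM in Ybx1-KO NPCs, without overlap between the groups (a log2 fold change of -1.78, SE 0.52, adjusted p = 0.356, edgeR). Tcf7, which encodes the Wnt pathway factor Tcf1 and is a partner of Sox13, was at 2.83 to 3.28 CPM and 3.63 to 12.7 CPM, and the groups did not overlap (1.36 on the log2 scale, SE 0.73). Col2a1, the cartilage collagen activated by SoxD with Sox9, was at 66.9 to 77.6 CPM and 59.5 to 133 CPM, and Hbb-y, a globin that Sox6 silences, at 137 to 558 CPM and 126 to 759 CPM.

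The progenitor and neuron markers frame these values. Of 11 progenitor markers 0 were called, 5 were higher and 1 was lower at an unadjusted p below 0.05, and the median log2 fold change was 0.66. Nes, the intermediate filament nestin, was at 53.4 to 130.7 CPM in control and 168 to 287 CPM in Ybx1-KO NPCs (log2 fold change 1.44, SE 0.46). The Notch target Hes5 was at 20.5 to 30.3 CPM and 41.5 to 71.1 CPM (1.05, SE 0.38), and the membrane protein gene Prom1 at 42.5 to 48.3 CPM and 58.8 to 79.7 CPM (0.66, SE 0.36). All 3 were without overlap. Slc1a3, a glutamate transporter of radial glia, was lower without overlap, at 37.0 to 93.2 CPM and 14.5 to 23.9 CPM (-1.78, SE 0.42). The receptor gene Notch1 had a log2 fold change of 1.10. Of 15 neuron markers 0 were called, 1 was higher and 1 lower at an unadjusted p below 0.05, and the median was -0.25. The synaptic genes Snap25 and Syt1 were lower without overlap, with log2 fold changes of -1.28 and -0.75, while the neurofilament genes Nefm and Nefl had values of 1.51 and 1.11.

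**Figure D5:**
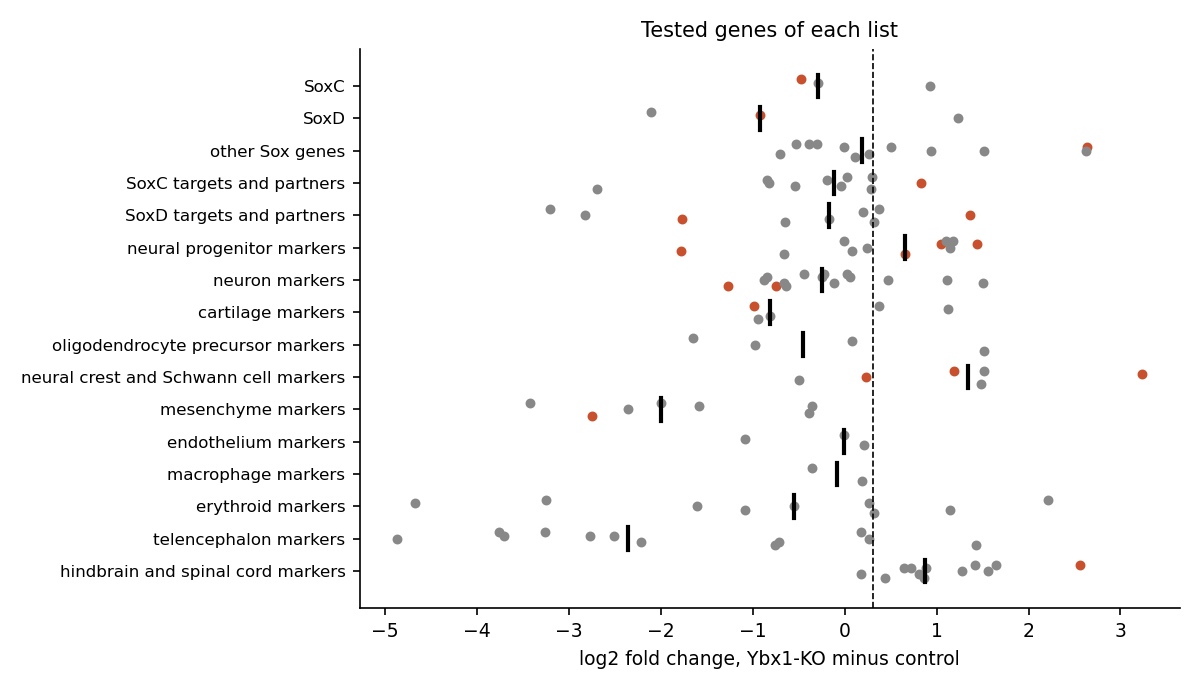
Log2 fold change (Ybx1-KO minus control, edgeR) of the tested genes of each list, 1 point a gene, orange where the groups did not overlap in CPM and grey where they did; black bars are list medians and the dashed line is the median of all tested genes, 0.31. No gene shown was called, and the telencephalon markers have a median of -2.36.

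The protein-coding genes whose log2 levels followed each member most closely over the 6 libraries were found by Pearson correlation among 13691 genes. For Sox4 they were Rab10, Arl8b and Rab11fip2 (each 0.99), genes of vesicle traffic. For Sox11 they were Cyb5b (0.9996), Arhgef4 (0.99) and Zfp608 (0.99), and for Sox12 Tsr2 (0.997), Mllt6 (0.99) and Mboat7 (0.99). Sox5 was followed by Rad1, Pde9a and Fam49a (each 0.99), of which Fam49a had the larger range, with 166, 38.0 and 132 CPM in control and 9.86, 29.4 and 25.6 CPM in Ybx1-KO NPCs. Sox6 was followed by Rps6kb2, Elmo2 and Zfp563 (each 0.99), and Sox13 by Cdhr1 and Bub1b (each 0.99). With 6 libraries such values are common: 142 genes, for Sox13, to 418, for Sox6, had a correlation above 0.9 with a member.

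The records antisense to Sox4 and Sox5 followed them between libraries. Gm26735 had 5817, 6574 and 5241 counts in A, B and C, and 1800, 2253 and 740 in the Ybx1-KO libraries, which is 0.575 to 0.775 of the counts of Sox4 in the same library. Sox5os1 had 348, 69 and 169 counts and 0, 28 and 19. Of 19 records that lie more than 97% within the exons of a gene on the other strand, 17 to 19 had counts in a library, and their median counts per base were 1.07 to 1.33 times those of that gene. The 4 such records on the same strand had none. Whether the antisense counts are transcripts of their own or reads of the sense gene was not tested. With both records added to their sense genes, the log2 fold change of Sox4 was -0.55 and that of Sox5 -2.13, and neither was called.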

How the data were processed

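RNA-seq of sorted NPCs was analysed in 3 control and 3 Ybx1-KO libraries. Per the labels and the study's methods, stranded total RNA libraries were sequenced in paired 100-cycle runs, mapped, and counted on GENCODE genes with HTSeq 0.6.1p1. The submitters' processing notes list mm10 and GRCm38.p5, and the aligner and strand setting are not given in the sources used here. The authors deposited raw counts per gene symbol, 1 table a library, with no normalization, filter or pooling. The tallies of read pairs outside genes were kept out of library sizes and tests (30.6% to 59.5% of read pairs).

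Counts were scaled by TMM and tested with edgeR 4.0.16 in R 4.3.3 (quasi-likelihood, no covariate, Benjamini-Hochberg adjustment over all tested genes). The study used voom on TMM-normalized values, and limma 3.58.1 was run as an alternative with DESeq2 1.42.0, sva 3.50.0, other scalings, filters and libraries left out. At the thresholds used here the paper reports genes changed in both directions, and it names Six3 and Hes5 as downregulated. Here limma-voom called 0 genes, and the means of Six3 and Hes5 were higher in Ybx1-KO NPCs. The reason for the difference was not tested. FPKM used each library's total on genes and the union of exons in GENCODE M21. Of 51733 symbols, 47624 matched by symbol and 357 by an older symbol. A floor of 3 counts stood at 0.126 to 0.632 CPM, and covers counting error only. Correlations used log2(CPM + 0.5). The test was first tested on simulated data. Figures were drawn with matplotlib 3.10.9.

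The members and the lists were chosen with earlier results of these data known. Named from each list were up to 4 tested genes with the smallest unadjusted p and every gene without overlap, and for each member the 3 protein-coding genes of most similar pattern. A few genes that this rule names are not reported here. The lists of telencephalon and of hindbrain and spinal cord markers were added after values had been seen.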

Additional observations from a re-analysis of the deposited data

How the results depend on the processing

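The number of called genes was 0 with all 6 libraries (2392 at an unadjusted p below 0.05) and 0 with limma-voom (1656), but 214 with DESeq2 (118 higher, 96 lower), 193 with no filter on low counts (113 and 80) and 206 with the libraries that share a first title number summed (138 and 68). Leaving out 1 library gave 0 to 946 called genes, the most without E and 697 without D. Sox5 was called with DESeq2 (log2 fold change -2.03, adjusted p = 0.0369), with no filter (-2.23, 0.0129) and with summed libraries (-2.20, 0.0488). With 1 library left out it ran from -2.53 to -1.58, and over all alternatives its adjusted p ran from 0.000237 to 0.787. Sox13 ran from 0.94 to 1.65 with 1 library left out and was called only without D. Sox11 ran from -0.49 to 0.033 and changed sign without F, where fewer genes were tested. It is among the 20 genes with the most counts, so their removal gives no value for it. Libraries were also left out on the genes tested with all 6, an alternative added after the data had been seen, as were the antisense sums. Called genes then numbered 71 without B, 107 without D, 420 without E and 46 without F, and 0 without A or C. Sox5 was then called without B (-2.54, adjusted p = 0.0180) and without E (-2.37, 0.0146), and not without D (-1.85, 0.112). On those genes Sox11 ran from -0.51 (without E) to -0.0029 (without F), with no change of sign, and Sox13 from 0.81 (without E) to 1.64 and was not called. Sox4, Sox12 and Sox6 kept their direction and were not called in any of their 28 alternatives. Causes were not tested. No paired analysis was possible because the groups share no first number in their titles and only 1 last number, the 1 of A, C and D. With 3 libraries a group, the smallest exact permutation p is 0.1.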

Other observations

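Other Sox genes varied without a common direction. Of 13, 12 were tested, Sox17 was not, 2 were higher and 0 lower at an unadjusted p below 0.05, and their median log2 fold change was 0.19. Sox15 was at 0.815, 0.655 and 1.52 CPM in A, B and C. In D, E and F it was at 11.2, 2.18 and 5.26 CPM, without overlap, on 14 to 99 counts a library. Sox10, a SoxE factor of neural crest and glia, was at 8.44, 16.1 and 19.2 CPM and at 18.9, 95.4 and 10.4 CPM, with E far above the rest. For Sox3, of the SoxB1 group, the log2 fold change was 0.93 with a standard error of 0.66, and for Sox30 it was 2.63 with one of 1.71, from 5.40 CPM in F, the library with background over silent genes, against 0.187 to 1.04 CPM in the other 5.

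Among the 6 neural crest and Schwann cell markers 4 were higher and 0 lower at an unadjusted p below 0.05, with a median of 1.34. Foxd3, a crest factor, was at 0.911, 4.31 and 0.610 CPM in control and at 29.3, 17.7 and 8.38 CPM in Ybx1-KO NPCs (log2 fold change 3.24, SE 0.74, adjusted p = 0.208, edgeR). Erbb3 was higher without overlap too, with a log2 fold change of 1.19, and Ngfr had one of 1.48. Of the 7 mesenchyme markers 5 were lower, with a median of -2.0. Lum was lower without overlap (-2.74), and Dcn, Col3a1 and Col1a1 had values of -3.43, -2.36 and -2.0, all highest in control A.

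Of 8 cartilage markers 5 were tested (Acan, Matn1 and Hapln1 were not) and 1 was lower, Col11a1 (-0.98, without overlap), with Col11a2, Col9a3 and Col9a1 at 1.12, -0.94 and -0.81 and a median of -0.81. Col11a2 was at 22.9 CPM in F against 0.794 and 2.80 CPM in D and E. Of 6 oligodendrocyte precursor markers 4 were tested (Cspg4 and Gpr17 were not), with Pdgfra at -0.97, Olig1 at -1.65 and Olig2 at 0.07, a median of -0.45 and 1 higher, Sox10. Of 5 endothelium markers 3 were tested (Kdr and Tek were not), none at an unadjusted p below 0.05, with Cdh5 at -1.08, Cldn5 at 0.21 and Pecam1 at -0.01. Of 5 macrophage markers 2 were tested (Cx3cr1, Aif1 and Ptprc were not), Csf1r at -0.36 and C1qa at 0.19. Of 9 erythroid markers 3 were lower and 1 was higher, with a median of -0.55. The adult globin genes Hbb-bs and Hbb-bt were at -4.67 and -3.25, Alas2 at -1.61 and the embryonic globin gene Hbb-bh1 at 2.21. Control B lay within the Ybx1-KO range for Hbb-bs (16.3 CPM), Hbb-bt (12.4 CPM) and Hbb-bh1 (16.4 CPM). Hbb-bs was at 603 and 191 CPM in A and C, against 4.97 to 20.3 CPM in the Ybx1-KO libraries.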
